A study of Mus musculus with 10 samples.

Results

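The 10 genes described here build the intercalated disc, the end-to-end contact between heart muscle cells. They are Dsp, Pkp2, Jup, Dsg2 and Dsc2 of the desmosome, Cdh2, Ctnna1, Ctnna3 and Ctnnb1 of the adherens junction, and the gap junction gene Gja1. They were chosen by name, with earlier results of these data known, and all 10 were found among the 23337 genes of the count table. Their messenger RNA was measured in heart muscle cells (cardiomyocytes) of 10 mice at postnatal day 14. The knockout group was Actn2-FF, with both alleles of the alpha-actinin-2 gene floxed, that is, flanked by sites at which Cre recombinase cuts. The heterozygote group was Actn2-F+, with 1 floxed allele and 1 that Cre leaves intact. Each group held 5 animals. All 10 animals, the heterozygotes included, had received AAV9-cTNT-Cre on postnatal day 1, a virus that carries Cre under a cardiac troponin T promoter. The comparison is therefore between the loss of both alleles and the loss of 1 allele, both in cells given Cre, and deletion is limited to cells that the virus reached. Cells were freed by collagenase perfusion and sorted by fluorescence, and the sources used here do not name the fluorescent label.

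The desmosome is a rivet-like contact. Its cadherins (desmoglein and desmocollin) span the membrane, and its plaque proteins (plakoglobin, plakophilin and desmoplakin) tie them to desmin filaments. In the adherens junction, N-cadherin is coupled through beta-catenin or plakoglobin to alpha-catenin, which binds the actin filaments that end at the disc. Both kinds of contact are mixed in the heart's area composita. Gap junctions of connexin 43 lie beside them and pass current between cells, and mutations in the human desmosome genes cause arrhythmogenic cardiomyopathy.

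Total counts per library ran from 8086656 to 25237696. Actn2 itself was at 1145 to 1286 CPM in the knockouts and at 2677 to 3474 CPM in the heterozygotes, so the labels held in all 10 libraries. CPM are counts scaled to a common library size. Of 11870 genes tested, 2241 passed an adjusted p of 0.05 with edgeR (quasi-likelihood, Benjamini-Hochberg). Knockouts were higher in 1216 and lower in 1025 of them (1684 and 760 with scaling by library totals alone). The 8 cardiomyocyte markers summed to 97713 to 122702 CPM in the knockouts and 105882 to 134501 CPM in the heterozygotes, and 2 of the 8 were called lower (Tnni3, -0.53, and Atp2a2, -0.40). Heterozygote 2 stood apart for the genes described here: it was the lowest of all 10 libraries in 8 of the 10. Knockout 2 was the highest of all 10 libraries in 5 of the 10 genes, and knockout 1 was the lowest knockout in 6.

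Of the 10 genes, 4 rose in the knockout and 0 fell. Those that rose were Dsp, Pkp2, Cdh2 and Ctnna3, by 28.8% to 42.8%. Over all tested genes, 18.9% were called in either direction, 10.2% higher and 8.64% lower. The median log2 fold change of the 10 genes was 0.16, against 0.0023 over all tested genes. The count of 0 lower was also 0 at an unadjusted p below 0.05 in edgeR. Of the 11870 tested genes, 3841 passed that unadjusted level in either direction. DESeq2 and limma's voom, run on the same counts, likewise called 4 of the 10 higher and 0 lower. Over all 11870 tested genes, DESeq2 called 1324 higher and 1301 lower, and voom called 1276 higher and 1037 lower. In 3 of the 10, every knockout lay above every heterozygote, which held for 8.41% of all tested genes, and in 0 of the 10 did every knockout lie below, against 6.32%.

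**Figure D1:**
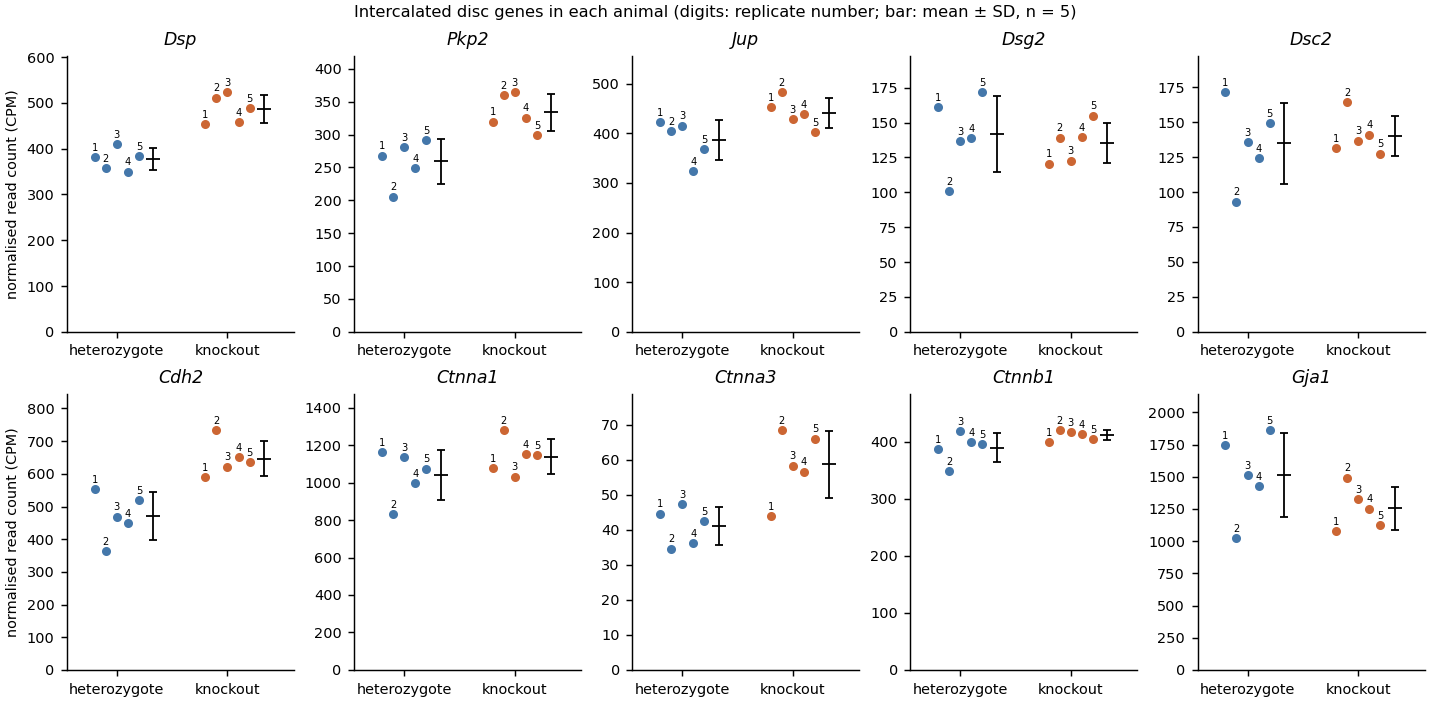
Normalised read count (CPM, y axis from 0) of each of the 10 genes in the 5 heterozygotes (blue) and 5 knockouts (orange). Digits are replicate numbers, and bars give the mean ± SD. The groups do not overlap for Dsp, Pkp2 and Cdh2.

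Dsp encodes desmoplakin, which links the desmosome plaque to intermediate filaments, and lies on chromosome 13 at 38151294 to 38198577 of build mm10. Dsp counts came to 382, 358, 410, 350 and 384 CPM in the heterozygotes (replicates 1 to 5), and 454, 511.5, 524, 457 and 488 CPM in the knockouts (replicates 1 to 5). The lowest knockout was above the highest heterozygote. Means came to 377 ± 23.9 and 487 ± 31.3 CPM (SD, n = 5 each), a log2 fold change of 0.37 (SE 0.0826, adjusted p 0.00616 by edgeR). Leaving out single animals gave 0.343 to 0.401, and Dsp was called each time.

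Pkp2 encodes plakophilin-2, the plaque protein that recruits desmoplakin (chromosome 16, 16213345 to 16272712). It was at 268, 205, 281, 249 and 292 CPM in the heterozygotes (replicates 1 to 5), and at 319, 360, 365, 326 and 299 CPM in the knockouts (replicates 1 to 5). The groups did not overlap, although knockout 5 was close to heterozygote 5. The means were 259 ± 33.9 and 334 ± 27.8 CPM (SD, n = 5), with a log2 fold change of 0.37 (SE 0.105, adjusted p 0.0254 by edgeR). The call was lost without knockout 2 (adjusted p 0.0646) and without knockout 3 (0.0712).

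Jup encodes plakoglobin, which is shared by desmosomes and adherens junctions (chromosome 11, 100368856 to 100397790). Its level was 422, 404, 415, 324 and 368 CPM in the heterozygotes and 452, 483, 428, 439 and 403 CPM in the knockouts, in replicate order. The groups overlapped, since knockout 5 lay below heterozygotes 1, 2 and 3. The log2 fold change was 0.19 (95% interval -0.01 to 0.39, adjusted p 0.177 by edgeR). Scaling by library totals alone brought Jup past the threshold (0.27, adjusted p 0.0308).

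The membrane-spanning desmosomal cadherins were not called. Dsg2, which encodes desmoglein-2 (chromosome 18, 20558116 to 20604526), ranged from 101 to 172 CPM in the heterozygotes and from 121 to 155 CPM in the knockouts. Its log2 fold change was -0.07 (95% interval -0.35 to 0.22, adjusted p 0.775 by edgeR). Dsc2, which encodes its partner desmocollin-2 (chromosome 18, 20030798 to 20059505), ranged from 93.1 to 171 CPM and from 127 to 164 CPM, with a log2 fold change of 0.06 (95% interval -0.24 to 0.35, adjusted p 0.831). For both genes the knockout values lay wholly within the heterozygote range. The sign of each changed under some of the settings tried, so neither has a direction here.

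Cdh2 encodes N-cadherin, the cadherin of cardiac adherens junctions (chromosome 18, 16588877 to 16809049). It was at 552, 364, 469, 450 and 519 CPM in the heterozygotes (replicates 1 to 5), and at 590, 734, 622, 651 and 636 CPM in the knockouts (replicates 1 to 5). All 5 knockouts were above all 5 heterozygotes. The means were 471 ± 72.3 and 647 ± 53.6 CPM (SD, n = 5), with a log2 fold change of 0.46 (SE 0.111, adjusted p 0.0102 by edgeR). Dropping any single animal kept it called, at 0.380 to 0.523.

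The alpha-catenin genes differed in level and in call. Ctnna1, which encodes the widely expressed alpha-E-catenin (chromosome 18, 35118912 to 35254775), was at 830 to 1162 CPM in the heterozygotes and 1032 to 1280 CPM in the knockouts. Its log2 fold change was 0.13 (95% interval -0.09 to 0.35, adjusted p 0.417 by edgeR). Ctnna3 encodes alpha-T-catenin, which is found mainly in heart and testis and binds plakophilin-2 (chromosome 10, 63430098 to 65003667). It was at 44.6, 34.6, 47.4, 36.3 and 42.6 CPM in the heterozygotes (replicates 1 to 5) and at 43.9, 68.5, 58.3, 56.6 and 66.1 CPM in the knockouts (replicates 1 to 5). Knockout 1 lay among the heterozygotes and the other 4 lay above them. The log2 fold change was 0.51 (SE 0.128, adjusted p 0.0120 by edgeR), between means of 41.1 ± 5.47 and 58.7 ± 9.66 CPM (SD, n = 5). Dropping any 1 animal gave 0.453 to 0.603, with Ctnna3 called in every case.

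Ctnnb1 encodes beta-catenin, which joins N-cadherin to alpha-catenin and also carries Wnt signals to the nucleus (chromosome 9, 120933400 to 120960507). It was at 387, 349, 419, 399 and 395 CPM in the heterozygotes and at 399, 420, 417, 413 and 405 CPM in the knockouts, in replicate order. All 5 knockouts lay within or just above the heterozygote range. The log2 fold change was 0.08 (95% interval -0.09 to 0.24, adjusted p 0.546 by edgeR).

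Gja1 encodes connexin 43, the main gap junction protein of ventricular muscle (chromosome 10, 56377300 to 56390419). Its level was 1744, 1023, 1511, 1426 and 1862 CPM in the heterozygotes (replicates 1 to 5), and 1077, 1493, 1327, 1253 and 1124 CPM in the knockouts (replicates 1 to 5). Heterozygote 2 was the lowest of all 10 libraries, and the groups overlapped. The means were 1513 ± 325 and 1255 ± 166 CPM (SD, n = 5), with a log2 fold change of -0.27 (95% interval -0.58 to 0.04, adjusted p 0.213 by edgeR). Without heterozygote 2 it was -0.38 and passed the threshold (adjusted p 0.0347). It did not pass when any other animal was left out.

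**Figure D2:**
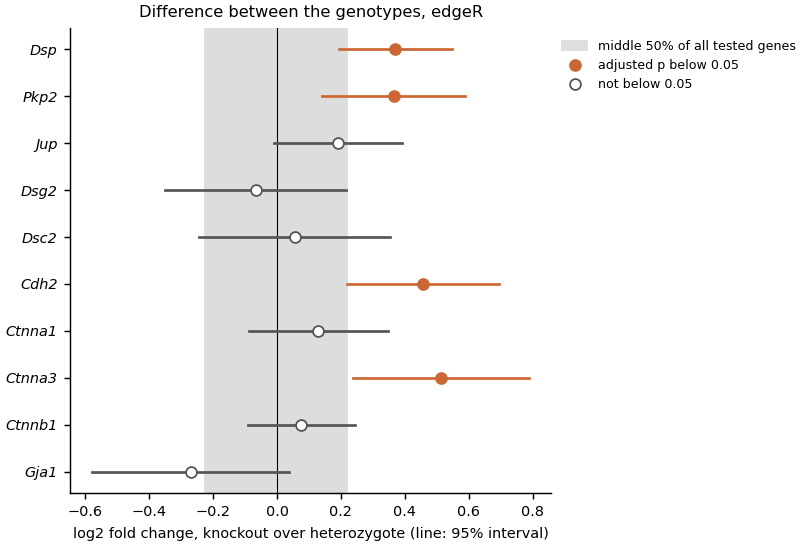
Log2 fold change of knockout over heterozygote (x axis) for each of the 10 genes, with its 95% interval. Filled points passed an adjusted p of 0.05 in edgeR, and the grey band spans the middle 50% of all tested genes, -0.23 to 0.22. Dsp, Pkp2, Cdh2 and Ctnna3 are filled and lie right of the band.

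The 4 calls were also made without heterozygote 2. In that fit the log2 fold changes were 0.355 for Dsp, 0.295 for Pkp2, 0.380 for Cdh2 and 0.462 for Ctnna3. Markers of some other cell types also differed between the groups. The 12 endothelial markers summed to 576 to 951 CPM in the heterozygotes and 394 to 673 CPM in the knockouts, ranges that overlapped. Of the 12, 2 were called lower and 0 higher. Log2 fold changes of the 12 ran from -0.76 (Cldn5) to -0.38 (Kdr), with a median of -0.46. The 7 macrophage markers summed to 12.4 to 30.6 and 7.13 to 10.6 CPM, with 1 called lower. Ranges also overlapped for the 8 fibroblast markers (330 to 538 and 318 to 648 CPM). The same held for the 6 mural cell markers (439 to 669 and 522 to 672 CPM). It held as well for the 5 mesothelial markers (4.05 to 20.5 and 4.06 to 7.64 CPM). Of the mural markers, Cspg4 was called higher (log2 fold change 1.84), and the other 5 were at -0.65 to -0.26 without a call. Of 5 erythroid markers, 4 haemoglobin genes had 0 counts and the sum reached 1.153 CPM at most. The 3 atrial markers summed to 4.03 to 69.4 CPM in the heterozygotes and 16.2 to 335 CPM in the knockouts, with none called. Knockout 5 was at 335 CPM and knockout 1 at 81.8 CPM, and the other knockouts were at 16.2 to 17.7 CPM. With the mean endothelial level as a covariate, 1011 of all 11870 tested genes were called, and 0 of the 10 genes described here. All 12 endothelial markers had negative log2 fold changes, so this covariate overlaps with genotype and the fit cannot fully separate the 2. Without it, the SEs were 0.0826 for Dsp, 0.105 for Pkp2, 0.111 for Cdh2 and 0.128 for Ctnna3. For the 4 genes called without the covariate, log2 fold changes in that fit were 0.313 for Dsp (SE 0.116, adjusted p 0.125 by edgeR) and 0.340 for Pkp2 (SE 0.146, 0.189). They were 0.398 for Cdh2 (SE 0.150, 0.129) and 0.414 for Ctnna3 (SE 0.171, 0.172). A change in RNA per cell and a change in the mix of sorted cells cannot be told apart in bulk libraries.

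Promoter windows are shown for Dsp and Ctnna3, called members on different chromosomes whose counted start matches a RefSeq start (build GRCm38.p6), since both rose. Each window runs from 250 bases before to 50 bases after the start, 5′ to 3′ on the plus strand, at chr13:38151044-38151343 and chr10:63429848-63430147. RefSeq windows were found for 5 of the 10 genes. Capitals mark motif matches on either strand.

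Dsp: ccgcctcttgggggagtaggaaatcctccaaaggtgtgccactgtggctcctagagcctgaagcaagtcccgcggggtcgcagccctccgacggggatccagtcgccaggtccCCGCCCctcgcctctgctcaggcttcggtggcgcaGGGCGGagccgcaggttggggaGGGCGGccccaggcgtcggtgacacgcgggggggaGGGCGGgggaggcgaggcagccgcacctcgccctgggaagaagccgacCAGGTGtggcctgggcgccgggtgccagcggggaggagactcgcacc

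Ctnna3: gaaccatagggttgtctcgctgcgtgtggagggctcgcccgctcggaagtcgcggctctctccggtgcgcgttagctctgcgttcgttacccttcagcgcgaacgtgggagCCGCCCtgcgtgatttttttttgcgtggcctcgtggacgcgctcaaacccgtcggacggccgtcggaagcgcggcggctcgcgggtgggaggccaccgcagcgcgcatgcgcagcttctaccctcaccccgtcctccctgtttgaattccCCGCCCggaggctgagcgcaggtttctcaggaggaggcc

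The motifs searched were the SRF CArG box and the MEF2 site by name, the TEAD site CATTCC, the AP-1 site TGANTCA, the TCF/LEF core CTTTGA, the E-box CANNTG and the GC box GGGCGG. No match overlaps one of another motif. The Dsp window held 4 GC boxes and 1 E-box, and the Ctnna3 window held 2 GC boxes. Among 32851 RefSeq windows of 300 bases, 35.7% held a GC box and 72.3% an E-box. The other motifs are found in 1.63% (CArG), 0.557% (MEF2), 14.7% (TEAD), 7.81% (AP-1) and 16% (TCF/LEF) of windows and in neither of these. GC content was 73.0% for Dsp and 67.0% for Ctnna3, against a median of 52.7%.

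Levels were compared between genes as RPKM, which divides the CPM by the exon length in kilobases. In the heterozygotes the order was Gja1 (487 ± 105 RPKM, SD, n = 5), Ctnna1 (283 ± 36.4), Ctnnb1 (108 ± 7.08), Cdh2 (101 ± 15.6), Pkp2 (89.6 ± 11.7), Jup (77.2 ± 8.16), Dsp (39.3 ± 2.49), Dsc2 (30.5 ± 6.61), Dsg2 (24.8 ± 4.77) and Ctnna3 (10.5 ± 1.39). Sample ranges of neighbours in this order overlapped for Ctnnb1 and Cdh2, Cdh2 and Pkp2, Pkp2 and Jup, Dsp and Dsc2, and Dsc2 and Dsg2. In the knockouts, Cdh2 (139 ± 11.5 RPKM) stood above Ctnnb1 (113 ± 2.41) and Pkp2 (115 ± 9.60). The ranges of Gja1 (404 ± 53.5) and Ctnna1 (309 ± 25.6) overlapped in the knockouts and were apart in the heterozygotes.

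**Figure D3:**
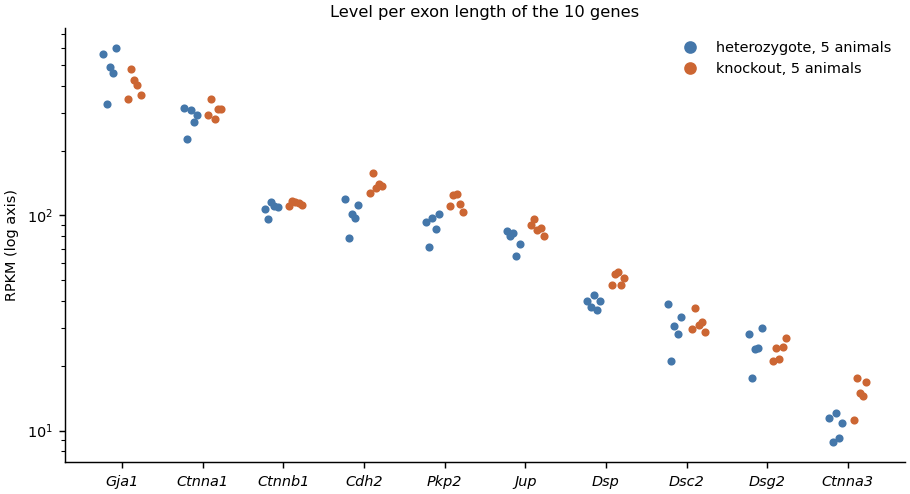
Level per exon length (RPKM, log axis) of the 10 genes, in falling order of the heterozygote mean, with 1 point per animal. Gja1 and Ctnna1 lie highest, and Ctnna3 lies lowest at about 10.5 RPKM in the heterozygotes (blue) and 14.96 RPKM in the knockouts (orange).

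Ratios between these genes within a library remove what moves all of them together in that library. Their choice followed sight of the values, so they are given without a test. The RPKM ratio of Cdh2 to Gja1 was 0.212, 0.237, 0.208, 0.211 and 0.186 in the heterozygotes (replicates 1 to 5), and 0.366, 0.328, 0.313, 0.347 and 0.378 in the knockouts (replicates 1 to 5). The groups lay far apart, and heterozygote 2 was no longer lower than the other heterozygotes. N-cadherin RNA per connexin 43 RNA thus had a mean of 0.211 ± 0.0182 in the heterozygotes and 0.347 ± 0.0265 in the knockouts (SD, n = 5). For Cdh2 to Ctnna1 the ratio ran from 0.327 to 0.382 in the heterozygotes and from 0.433 to 0.477 in the knockouts, also without overlap.

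Within the desmosome, the summed plaque genes (Dsp, Pkp2 and Jup) were at 206 ± 16.7 RPKM in the heterozygotes and 254 ± 15.7 RPKM in the knockouts (SD, n = 5). The summed cadherins (Dsg2 and Dsc2) were at 55.3 ± 11.1 and 55.4 ± 4.15 RPKM. The ratio of plaque to cadherin RNA was 3.24, 4.89, 4.08, 3.58 and 3.36 in the heterozygotes (replicates 1 to 5) and 4.89, 4.46, 5.08, 4.40 and 4.203 in the knockouts (replicates 1 to 5). Heterozygote 2, where the cadherins were lowest, lay within the knockout range, and the other 4 heterozygotes lay below it.

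Among the alpha-catenins, Ctnna3 made up 3.58% ± 0.197 of length-scaled counts in the heterozygotes and 4.60% ± 0.587 in the knockouts (SD, n = 5). Knockout 1 lay within the heterozygote range. Unscaled, the lowest knockout share was 3.92% (knockout 1, Wilson 95% interval 3.57 to 4.30%), the highest was 5.46% (knockout 5, 5.16 to 5.77%), and the highest heterozygote share was 4.01% (3.57 to 4.49%). Such intervals cover counting error only. Plakoglobin and beta-catenin are related armadillo proteins that compete for N-cadherin. Jup made up 41.7% ± 3.36 of their summed length-scaled counts in the heterozygotes and 43.7% ± 1.54 in the knockouts, a difference of 1.93 points, smaller than the SD of the heterozygotes. It was 0.744 points without heterozygote 4 and 2.89 points without heterozygote 2.

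**Figure D4:**
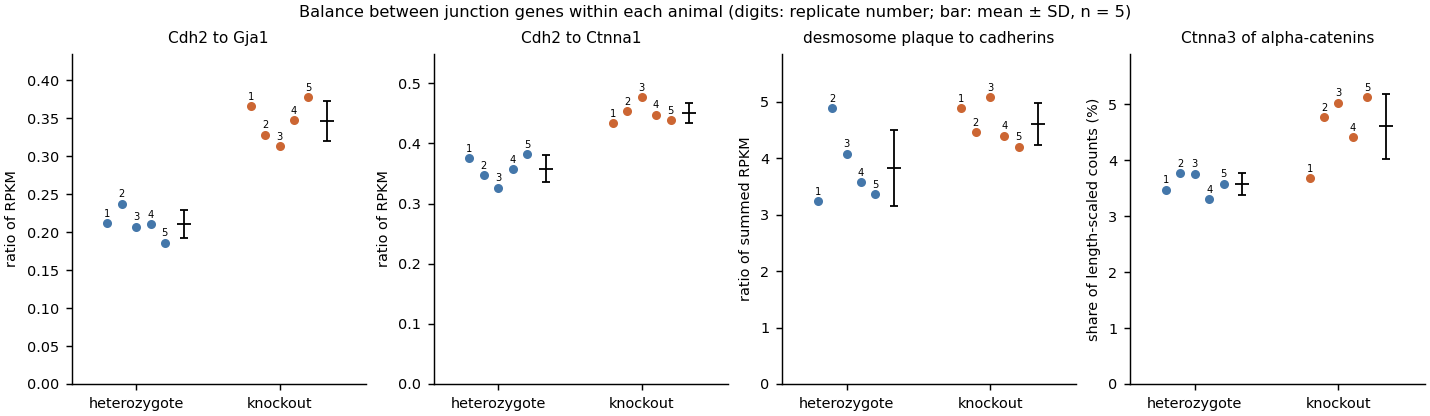
Ratios of RPKM for Cdh2 to Gja1, Cdh2 to Ctnna1 and desmosome plaque to cadherin genes, and the Ctnna3 share of alpha-catenin counts (percent), in each animal. Digits are replicate numbers and bars the mean ± SD. The groups are apart in the 2 left panels and overlap in the 2 right panels.

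A list of other junction genes was drawn from textbook roles, with earlier results of these data known. It held 89 genes of the table, of which 64 were tested. In edgeR 15 rose and 6 fell, where 10.2% of all tested genes were called higher and 8.64% lower, and the median log2 fold change of the 64 was 0.16. Some paralogs of the junction genes were near absent: Pkp1, Cdh1 and Gjb6 had 0 counts in all 10 libraries, which allows up to 1.19e-05% to 3.71e-05% of a library's counts, and Pkp3, Dsg3, Dsg4, Dsc1, Dsc3, Ctnna2 and Gjb2 stayed below 0.5 CPM.

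Adherens junction partners gave 7 rises and 1 fall among 17 tested genes (10.2% and 8.64% over all tested genes). The largest rises with a mean of at least 10 CPM were those of the actin-binding disc adaptors Xirp2 and Nrap. Xirp2, which encodes a Xin-repeat protein that binds actin and catenins, was at 101, 104, 113, 94.0 and 72.0 CPM in the heterozygotes (replicates 1 to 5) and at 464, 343, 724, 312 and 349 CPM in the knockouts (replicates 1 to 5). Every knockout was above every heterozygote (log2 fold change 2.18, SE 0.214, adjusted p 1.12e-05 by edgeR). Nrap, a scaffold of assembling myofibrils at the disc, went from 450 ± 53.3 to 921 ± 90.2 CPM (n = 5, SD; a log2 fold change of 1.03, adjusted p 1.24e-05), and shares exon sequence with Habp2. Jub, the LIM protein ajuba that binds alpha-catenin, rose by 0.79 (adjusted p 0.00293, and 0.0633 with the endothelial covariate). Pvrl2, the cell adhesion molecule nectin-2, fell from 50.007 ± 12.01 to 32.2 ± 3.96 CPM (log2 fold change -0.64, adjusted p 0.00806, and 0.0844 with the endothelial covariate). The p120-catenin gene Ctnnd1 (0.29, adjusted p 0.145), vinculin (Vcl, 0.19, 0.196) and afadin (Mllt4, 0.20, 0.329) did not pass.

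Gap and tight junction genes gave 3 rises and 2 falls among 9 tested, beside the same shares of 10.2% and 8.64%. Tjp1, which encodes the ZO-1 scaffold that binds connexin 43, rose from 84.2 ± 15.5 to 142 ± 17.7 CPM (n = 5, SD; a log2 fold change of 0.75, SE 0.134, adjusted p 0.00143 by edgeR). Gja3, which encodes connexin 46, was at 50.1, 62.7, 37.8, 29.2 and 40.0 CPM in the heterozygotes (replicates 1 to 5) and at 27.6, 28.4, 20.7, 26.9 and 19.2 CPM in the knockouts (replicates 1 to 5). Its groups were apart by a narrow margin (log2 fold change -0.85, SE 0.185, adjusted p 0.00558). Gjc1, the connexin 45 gene, was not called (0.23, adjusted p 0.194), nor was Gja5, the connexin 40 gene of atria and conduction fibres (-0.71, adjusted p 0.148), although Gja5 passed with the endothelial covariate and without knockout 5.

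Among 12 tested genes of disc membrane proteins, 3 rose and 2 fell, beside shares of 10.2% and 8.64% over all tested genes. Popdc3 rose by 0.74 (adjusted p 7.33e-05 by edgeR), while its family member Popdc2 fell from 1279 ± 120 to 973 ± 54.3 CPM (n = 5, SD; a log2 fold change of -0.39, adjusted p 0.00531, and 0.0692 with the endothelial covariate). Both encode Popeye proteins, membrane proteins that bind cyclic AMP. Fgf13, a partner of sodium channels, fell by 0.37 on the log2 scale (adjusted p 0.0275). This call was lost without heterozygote 5, knockout 1 or knockout 3 (adjusted p 0.0678 to 0.0717), and also with library totals alone (0.098) and with the endothelial covariate (0.11). Other desmosome genes gave 1 rise (Tmem43, listed below) and 1 fall among 5 tested, beside the same shares of 10.2% and 8.64%. The fall was that of Perp, a membrane protein of desmosomes (log2 fold change -0.33, adjusted p 0.0115 by edgeR). Perp did not pass with scaling by library totals alone (0.0587) or with the endothelial covariate (0.138). Desmin (Des, 0.20, adjusted p 0.403) did not pass.

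The 10 remaining calls are named after their values were seen. Cdh3, which encodes P-cadherin, was at 0.123 to 0.444 CPM (1 to 6 counts per library) in the heterozygotes and at 3.75 to 10.2 CPM in the knockouts. All its heterozygote counts were below the filter's minimum of 10. Cdh3 was therefore tested only through its knockout values, and no p is given. It is still counted among the 7 adherens junction rises and the 15 rises of the whole list. Panx1, the channel protein pannexin 1, was at 1.05 to 1.89 and 5.12 to 8.88 CPM (adjusted p 1.48e-05 by edgeR). Xirp1, Pvrl3, Cxadr, Bves, Ank3, Tmem43 and Apc were higher, with log2 fold changes of 0.46 to 0.73. Of these 10, Xirp1, Cxadr, Ank3, Tmem43 and Gja4 were not called with the endothelial covariate. The Pvrl3 call was lost without heterozygote 3, heterozygote 5, knockout 1, knockout 2 or knockout 3. Gja4, the connexin 37 gene of endothelium, was lower (-1.09, adjusted p 0.0111). The 12 endothelial markers had a median log2 fold change of -0.46, with 2 called lower. The part of endothelial cells in the Gja4 result was not tested.

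Beta-catenin signalling genes gave 1 call among 21 tested, where 18.9% of all tested genes were called. It was that of Apc, a scaffold of the complex that marks beta-catenin for destruction. It was at 29.8 to 46.9 CPM in the heterozygotes and 57.2 to 77.7 CPM in the knockouts (log2 fold change 0.72, adjusted p 0.00115 by edgeR). The count called lower was 0 with edgeR, DESeq2 and voom. Over all tested genes these called 1025, 1301 and 1037 lower. At an unadjusted p below 0.05 in edgeR, 5 genes of the list were higher and 4 lower. That unadjusted level was passed by 3841 of all 11870 tested genes, in either direction. The Wnt target Axin2 stayed at 0.170 to 1.604 CPM, and Lef1, Lgr5 and Sp5 did not reach the filter on low counts.

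**Figure D5:**
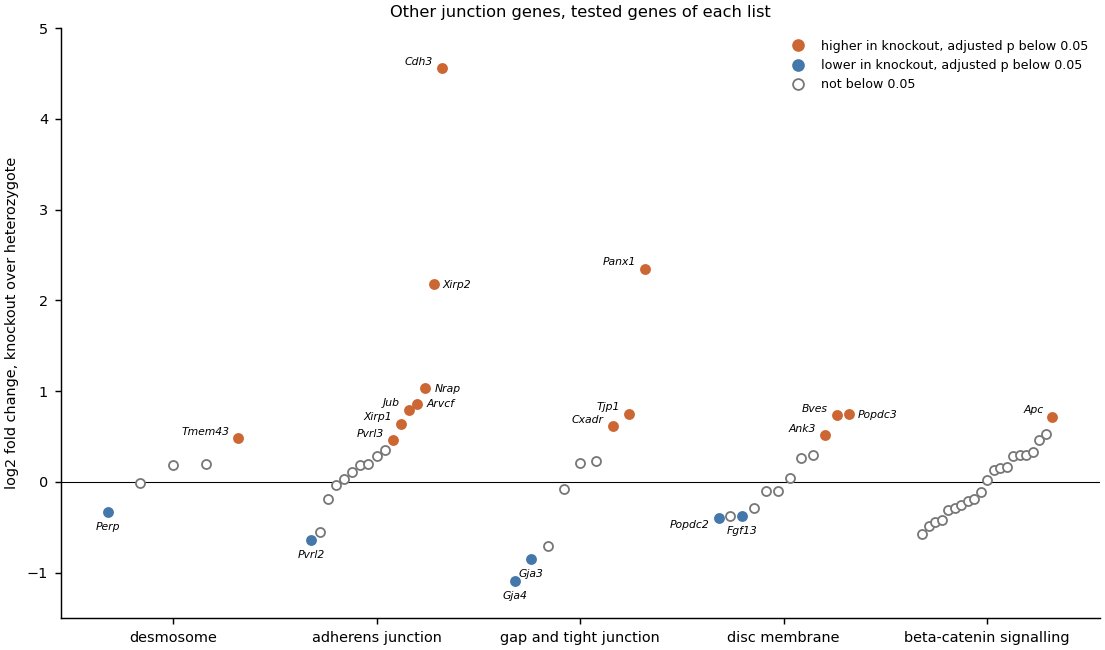
Log2 fold change of knockout over heterozygote (y axis) for the 64 tested genes of 5 lists, sorted within each list. Filled points passed an adjusted p of 0.05 in edgeR (orange higher, blue lower) and carry their names. The 15 orange points include Xirp2 at 2.18, and the 6 blue points include Gja3 at -0.85.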

How the data were processed

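Poly(A) RNA was sequenced from 10 libraries, 5 per genotype, described as biological replicates in the series text. The deposited values are raw read counts per gene. FeatureCounts 1.5.1 produced them on UCSC mm10 genes, per the file headers, with no option besides 4 threads, so strand was not used and reads mapping to several places or genes were dropped. The submitters' processing notes name STAR 2.5.3a and Subread 1.5.2. Coordinates are those of the table, and the exon length is the deposited length column. Another 4 columns match no sample of the series and were not used.

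Genes passing edgeR's default filter (minimum count 10, minimum total 15) were scaled by TMM and compared in edgeR 4.0.16 under R 4.3.3 by its quasi-likelihood F test without covariates, with Benjamini-Hochberg adjustment over all 11870 genes. All 10 members passed the filter. The SE is the log2 fold change divided by the square root of F. The steps were tested on simulated data with known changes. Replicate pairs differed by a chi-square of 10.8 to 37.5 per degree of freedom, so none is a copy.

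Members and lists were chosen with earlier results of these data known. Named from the lists are the 6 largest rises and 6 largest falls (5 found) among called genes averaging 10 CPM or more. One of these rises is not reported here. Alternatives were RLE, upper-quartile and library-total scaling, no filter, a filter at 5 CPM, a replicate block, DESeq2 1.42.0, voom (limma 3.58.1), endothelial and Y-linked covariates, and leaving out each animal.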

Additional observations from a re-analysis of the deposited data

Results flagged for a closer look

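Among 50 groups of 5 values checked for a sample far from the others, 2 stood out, where chance gives about 2.5. The library of heterozygote 1 totals 25237696 counts and the next in its group 10309615, a gap of 0.870 of the range. Tjp1 was at 57.6 CPM in heterozygote 2 against 85.6 CPM in the next lowest, a gap of 0.713 of the range. Without that animal its log2 fold change was 0.645 and remained past the threshold (edgeR adjusted p 0.000917).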

How the results depend on the processing

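Of the 22 genes picked by the naming rule (Actn2, the 10 members and 11 others, 1 of them not reported), 9 kept their direction and side of the threshold under all 20 alternatives, and over all genes and alternatives 16 of 440 values lost a call, 2 gained one and 5 changed sign. The sign changes were those of Dsg2 with library totals (0.014) and without heterozygote 5 (0.0125), and of Dsc2 with the endothelial covariate (-0.017), without heterozygote 2 (-0.0488) and without knockout 2 (-0.00824). With the endothelial covariate, 1011 genes were called over the table, 0 of the 10 members and 12 of the other junction genes; the cause was not tested, and SEs were larger. Without heterozygote 2, Dsg2 was at -0.166, and without heterozygote 1, Dsc2 was at 0.161. Leaving out single animals gave 1699 to 2258 calls over the table, 3 to 5 members, 19 to 25 other junction genes, Ctnna3 share differences of 0.897 to 1.26 points and Jup share differences of 0.744 to 2.89 points (1.93 with all animals, lowest without heterozygote 4). Library totals alone made 68.9% of calls higher, against 54.3%. The labels link same-numbered animals by number alone. Their departures from the group means correlated at -0.06 to 0.19, which cannot decide whether they were otherwise linked. Heterozygotes 4 and 5 correlated best with knockouts 4 and 5 (0.19 and 0.14), and the other heterozygotes with a knockout of another number. With a replicate block 2182 genes, 4 members and 22 other junction genes were called, Gja5 among them.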
